A study of Mus musculus with 6 samples.

Results

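Cytosolic ribosomal protein mRNAs were taken by symbol. Each Ensembl gene identifier in the deposited tables was mapped to its mouse symbol, and symbols of the Rpl, Rps and Rplp series, their a, x, l, al, l1 and a1 forms, and Rpsa were kept. This gave 79 of 18437 listed mRNAs. Of the 79, 74 encode canonical subunits, named core subunits here, with 45 in the large and 29 in the small subunit. The remaining 5 are the paralogs Rpl3l, Rpl7l1, Rpl22l1, Rpl36al and Rps27l. The annotation holds 85 protein-coding genes with such symbols, and 6 of them were listed in no library, namely the core subunits Rpl10, Rps10 and Rps27 and the paralogs Rpl10l, Rpl39l and Rps4l. The values are ribosome densities from Ribo-seq, in which mRNA fragments protected by ribosomes are sequenced, of 6 tissues from untreated wild-type (WT) C57BL/6J mice at 4 weeks of age. The tissues were small intestine, colon, brain, heart, kidney and lung, with 1 library each and 4504853 to 10635031 reads on coding sequences (CDSs) per library. How many animals a library came from was not given in the sources used here. The unit is RPKM, the reads on a CDS scaled by its length in kilobases and by all reads on CDSs of the library, so levels of different mRNAs can be set side by side. With 1 library per tissue no difference between tissues could be tested, and all intervals below cover counting error only. In whole-tissue lysates, fewer cells of a type and less RNA per cell cannot be told apart, and neither can more mRNA and more ribosomes per mRNA.

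The cytosolic ribosome joins a large and a small subunit, each built from ribosomal RNA and a fixed set of proteins of which nearly all are present in a single copy. In vertebrates most of these proteins are encoded by a single expressed gene, with many processed copies elsewhere in the genome. Their mRNAs begin with a C followed by pyrimidines, the 5′ terminal oligopyrimidine (TOP) motif, through which mTORC1 and the TOP-binding protein Larp1 control their translation. A few subunits have a further coding gene, such as Rpl3l, which is known from striated muscle.

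The labels of 4 libraries went against their tissue markers. Summed over Snap25, Gfap and Syt1, the brain markers came to 11.9 RPKM under the label brain but to 3049 RPKM under small intestine. The small intestine markers Apoa4, Fabp2 and Sis came to 351 RPKM under their own label but to 28167 RPKM under brain. For kidney, the sum of Umod, Slc34a1 and Slc12a1 was 15.8 RPKM under the label kidney but 18523 RPKM under colon, and for colon that of Muc2, Car1 and Slc26a3 was 1.72 RPKM under the label colon but 3288 RPKM under kidney. Heart and lung markers were highest under their own labels. Each library is therefore named by its label only, and a direction between libraries holds for labels, not for tissues. In all lists of 6 values below, the labels run alphabetically: brain, colon, heart, then kidney, lung and small intestine.

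The start of the mRNA is shown first, since the TOP motif is the feature these mRNAs are known for. RefSeq promoters of GRCm38.p6 were available for 54 of the 74 core subunits. A C followed by at least 4 pyrimidines on the sense strand (letters C and T, CCCCC or CTTTT for example) began exactly at an annotated start in 11 of 54 (20.4%) and in 813 of 27025 genes in the table (3.01%). Within 10 bases of the start it was found in 32 of 54 (59.3%) and in 34.4% of all genes. The large subunit had 20 of 33 and the small subunit 12 of 21 within 10 bases. The following stretches of 25 bases around the start show 4 members with the motif at the exact start and Rpl41, the member with the highest density, without it. Capitals mark the C and the run of pyrimidines that reaches across or begins at the start, which is the 13th base.
Rpl35a, chr16:33056470-33056494, plus strand: gggcttgCCTTCCTCTTTCCgccat
Rps6, chr4:86857355-86857379, minus strand: cggaagtcgggCCTCTTTTTCgtga
Rpl38, chr11:114668568-114668592, plus strand: ggaagcctcgttCTTTCCCCgttct
Rps15a, chr7:118116135-118116159, minus strand: tctttctgccatCTTCCCTCgccgg
Rpl41, chr10:128549156-128549180, minus strand: acgggccggctcggaagtgacgaca
The annotated start need not be the start used in these tissues. The 32 core subunits with the motif within 10 bases had a median density of 68.6 RPKM and the 22 without it 167 RPKM, and the range over the 6 libraries was alike, with medians of 1.92 and 1.73 on the log2 scale. The 32 include Rplp2, Rpl13a, Rpl35, Rps18 and Rps23, and the 22 include Rpl9. Most of the CDS of each of these is shared with other coding mRNAs, as described below, and their part in the difference was not tested.

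The median core subunit was denser than most mRNAs over 1 RPKM in every library. The median density of the core subunits was 95, 99.5, 143, 112, 124 and 62.9 RPKM, while the median of all mRNAs over 1 RPKM was 14.7, 13, 9.17, 8.59, 16.4 and 9.78 RPKM. The core median thereby stood at a percentile between 86.3 (small intestine label) and 92.9 (heart label) of those mRNAs, and 28 to 44 of the 79 members were among the 1000 densest mRNAs of a library. The library labelled heart was highest and that labelled small intestine lowest, and both kept these places after median-of-ratios scaling, at 159 and 71.6 RPKM. The 95% interval of the median, taken from the order of the subunits, was 74.3 to 215 RPKM for heart and 43.6 to 106 RPKM for small intestine, and it covers the spread between subunits only. The library labelled lung did not keep its place, since that scaling took it from 124 to 88.7 RPKM, next to 88.6 and 88.5 RPKM under the labels brain and colon. All members together took 0.977%, 1.06%, 1.16%, 0.953%, 1.15% and 0.609% of the reads on CDSs. The 95% Wilson intervals of these shares did not overlap, apart from those of heart (1.15 to 1.16) and lung (1.14 to 1.16). One mRNA outside the family, Kri1, took 2.01%, 6.79%, 1.04%, 22.1%, 0.400% and 14.1% of the reads, and without it the members' share was 0.997%, 1.14%, 1.17%, 1.22%, 1.15% and 0.709%. The library labelled kidney then moved from the second lowest share to the highest, and that labelled small intestine remained lowest.

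The subunits differed far more from each other than the libraries did. Of the sum of squares of log2(RPKM + 1) over the 74 core subunits and 6 libraries, subunit identity held 88.8%, the library 1.80% and the remainder 9.37%. Rpl41, which encodes the smallest ribosomal protein, was highest in 5 of the 6 libraries, with 4301, 2640, 8851, 10284, 5415 and 4839 RPKM. Its annotated CDS of 138 nt is the shortest of the family, so few positions carry these densities. In the library labelled colon Rpl35a was higher than Rpl41. Next by mean log2 density were Rpl21 (1056 to 2401 RPKM), Rpl19 (649 to 2586 RPKM), Rps28 (666 to 2932 RPKM) and Rps14 (842 to 1813 RPKM), all structural subunit proteins. Rpl41, Rpl21 and Rps28 were among the 5 densest core subunits in all 6 libraries, and Rpl19 and Rps14 among the 10 densest. The 5 members with the most reads held 36.3% to 43.4% of the reads of the family in a library.

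**Figure D1:**
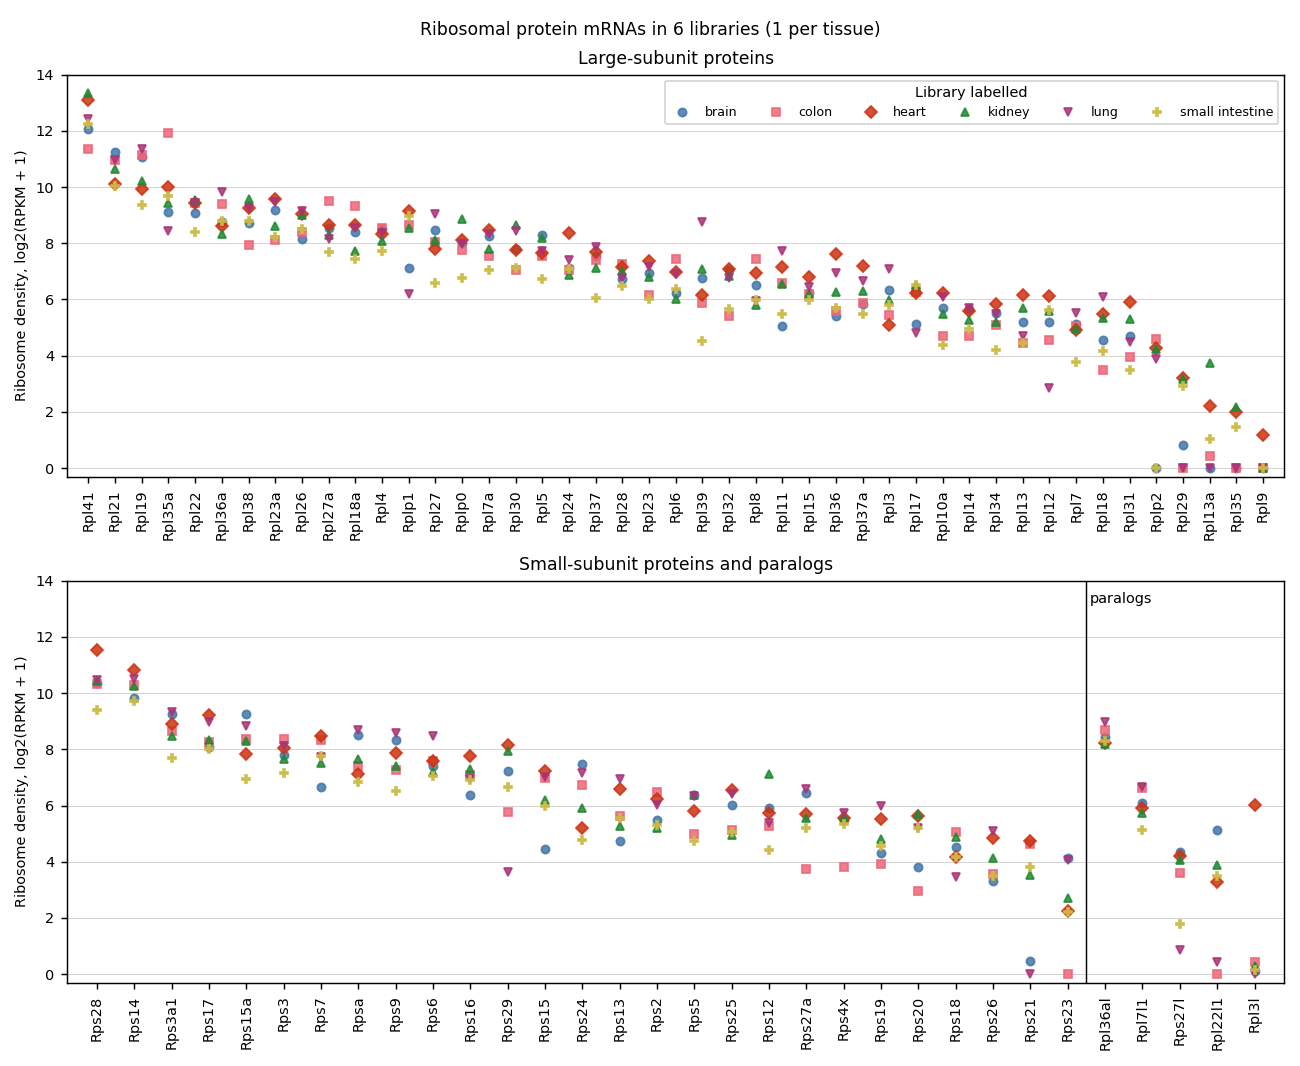
Ribosome density of 72 core subunits and of the 5 paralogs, as log2(RPKM + 1), with 1 point per library (colour and shape, named by label). Members are ordered by their mean; the order from Rpl41 to Rpl9 and from Rps28 to Rps23 is much the same in every library, while Rpl3l stands at 64.5 RPKM in the library labelled heart and near 0 in the others.

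At the low end, Rpl9 had 6 reads in the library labelled heart (1.27 RPKM) and none in the other 5, which allows up to 0.490 to 1.16 RPKM there (3 reads). Rpl35 had 0 to 10 reads (at most 3.57 RPKM), Rpl13a 0 to 57 reads (at most 12.3 RPKM), Rpl29 0 to 32 reads (at most 8.15 RPKM) and Rps23 0 to 75 reads (at most 16.4 RPKM). These 5 are constant parts of the ribosome, and they were the 5 least dense core subunits, within the lowest 10 of each library. The study's methods, given for other libraries of the study, keep reads that align to a single place, so the sequence each CDS shares with other coding mRNAs was measured as the share of its 29-nt windows found once, on either strand, among the representative mRNAs of 21770 protein-coding genes. For Rpl9 5.29% of the windows were unique, for Rpl35 8.50%, for Rpl13a 2.41%, for Rpl29 45.4% and for Rps23 7.73%. The core subunits listed in no library were at 0% (Rpl10), 14.3% (Rps10) and 12.8% (Rps27). In contrast, 57 of the 74 listed core subunits had at least 90% unique windows.

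The windows are shown for 3 of these genes, because the letters themselves are what an alignment sees. Each line gives the first 29 bases of the CDS, and the same 29 bases also occur in the mRNA of another gene, namely Rpl9-ps6, Rps27rt and Rpl35rt. No base is set in capitals because none differs between the copies.
Rpl9 (gene at chr5:65540227-65548804 of GRCm39, minus strand): atgaagaccattctcagcaatcagactgt
Rps27 (gene at chr3:90119819-90120977 of GRCm39, minus strand): atgcctctcgcaaaggatctccttcatcc
Rpl35 (gene at chr2:38891591-38895637 of GRCm39, minus strand): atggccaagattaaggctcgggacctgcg
Rpl9-ps6 holds 94.7% of the windows of Rpl9, Rps27rt 87.2% of those of Rps27 and Rpl35rt 91.5% of those of Rpl35. Elsewhere, Rpl10-ps3 holds 100% of the windows of Rpl10, Gm45713 97.6% of those of Rpl13a, and Gm5148, on the opposite strand, 92.3% of those of Rps23.

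Across the family, 8 core subunits had under 50% unique windows (Rpl9, Rpl13a, Rpl29, Rpl35, Rplp2, Rps18, Rps23 and Rps27a), and the median of their mean densities was 5.70 RPKM. The 9 core subunits with 50% to 90% had a median of 217 RPKM, and the 57 with at least 90% had 138 RPKM. The low level thus went with a low unique share under 50% and not with a graded loss above it. Over the whole genome, 28 core subunits had no unique window, and the median of their mean densities was 140 RPKM. Only 1.30% of the core subunits in the annotation had at least 90% unique windows there. With so little contrast, copies outside coding mRNAs could not be related to the level. The paralog Rpl36al went against the pattern, with 292 to 502 RPKM. Of all its CDS windows 5.17% were unique, and 94.8% also occur in the mRNA of Gm49383. CDS length and GC3, the share of codons with a synonymous choice that end in G or C, had a Spearman's rho with the level of −0.09 and 0.04 across the 74 core subunits, and the share of unique windows had 0.22. The subunits are not independent replicates. Whether alignment to a single place lowered the values of the 8 was not tested, and the annotation searched here is a later one than the authors' release.

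**Figure D2:**
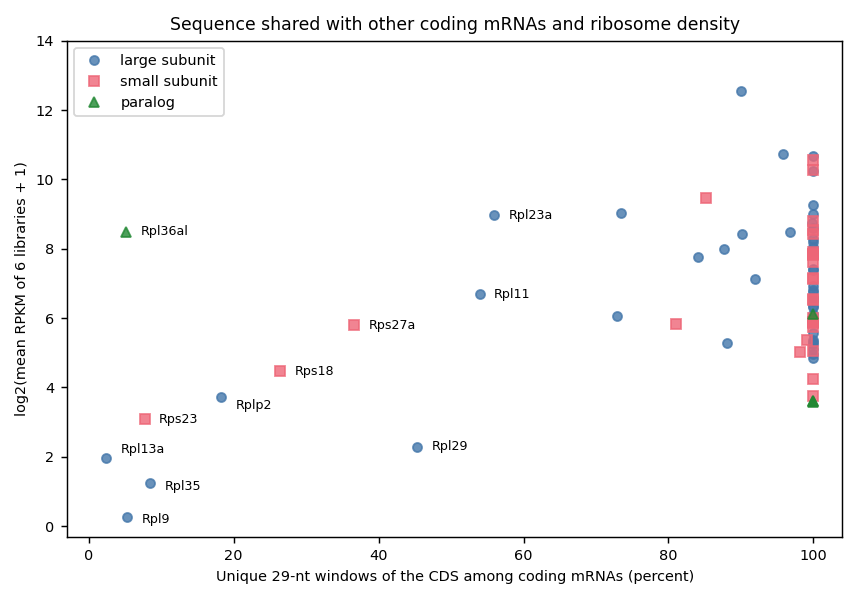
Each point is a listed member; the x axis gives the percent of 29-nt windows of its CDS that occur once among coding mRNAs and the y axis log2 of its mean RPKM over 6 libraries plus 1. The 8 core subunits under 50% lie between 0.212 and 54.6 RPKM, whereas those at 90% or more lie between 12.4 and 6055 RPKM, and Rpl36al stands apart at the upper left.

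Within a library the SD of log2(RPKM + 1) between core subunits was 2.61, 2.71, 2.20, 2.14, 2.63 and 2.28, and that of all mRNAs over 1 RPKM was between 1.94 and 2.07. The 2 are not alike, since no such minimum was set for core subunits, of which 0 (heart label) to 5 (lung label) were at 0 RPKM. Without the low members the spread was narrower, with an SD of 1.77 to 2.24 over the 57 core subunits with at least 90% unique windows and 1.46 to 1.57 over the 41 with at least 100 reads in every library. The order of the subunits was shared between libraries. Over the core subunits, Pearson's r of log2(RPKM + 1) between pairs of libraries was 0.838 to 0.951 (15 pairs, median 0.903), and 0.766 to 0.956 (median 0.855) over the 57 with at least 90% unique windows. Over the 6969 mRNAs with a mean of at least 10 RPKM it was 0.235 to 0.733. Both are correlations across genes, which share their CDS length and sequence between libraries.

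Large-subunit mRNAs had the higher median in every library. The medians were 108, 131, 147, 114, 135 and 66.1 RPKM for the large subunit and 81.6, 88.9, 94.7, 81.4, 123 and 46.2 RPKM for the small subunit. The difference of the log2 medians was 0.39, 0.56, 0.62, 0.48, 0.13 and 0.51, or 1.09-fold to 1.55-fold. The SD between single subunits was 2.29 to 2.87 within the large and 1.80 to 2.48 within the small subunit. The direction of the difference was not stable. It turned to −0.16 in the library labelled kidney over the subunits with at least 90% unique windows, and in the library labelled lung it turned to −0.01 with means in place of medians and to −0.04 over CDSs of at least 300 nt. Large-subunit proteins took 0.409% to 0.753% of all reads and small-subunit proteins 0.187% to 0.451%.

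**Figure D3:**
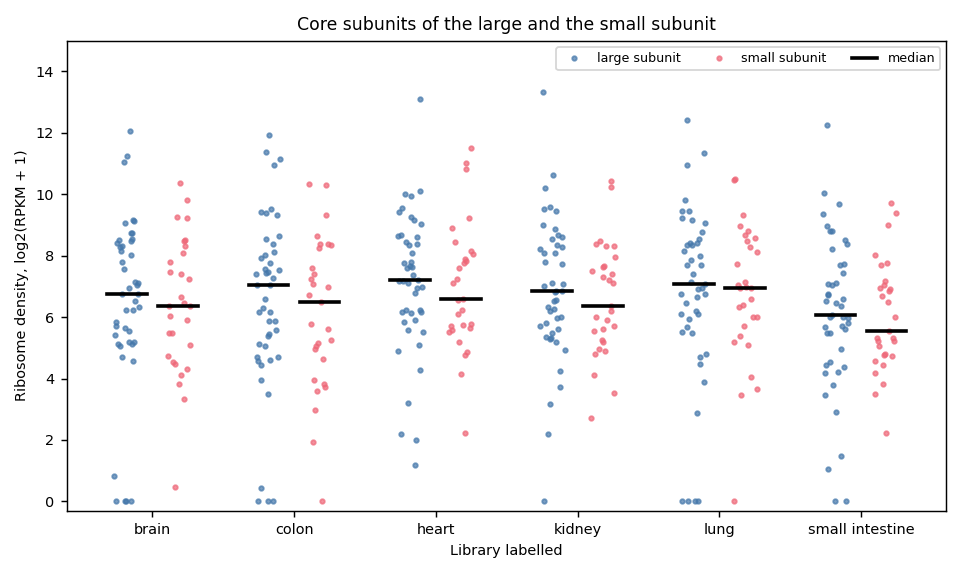
Each point is a core subunit and each black bar a median, with log2(RPKM + 1) on the y axis and the libraries by label on the x axis. The median of the large subunit lies above that of the small subunit in all 6 libraries, by 0.13 to 0.62, within wide clouds that overlap throughout.

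Most core subunits ranged over 2-fold between libraries, as did most mRNAs. Of the 69 core subunits with a mean of at least 10 RPKM, 65 (94.2%) had a highest library at least 2-fold above the lowest on the log2(RPKM + 1) scale, where 97.8% of all 6969 such mRNAs did. At 4-fold the counts were 25 of 69 (36.2%) and 77.4%. The median range was 1.79 for core subunits and 3.29 for all mRNAs on the log2 scale. The 5 core subunits below that mean were Rpl9, Rpl13a, Rpl29, Rpl35 and Rps23. After each library's core median was removed, 52 of 69 core subunits (75.4%) still ranged over 2-fold, beside 98.7% of all mRNAs. Over 4-fold it was 18 of 69 (26.1%), beside 81.4%. That median is taken from the core subunits themselves, so its removal favours a narrower range for them than for other mRNAs. How much of the range the family shared was therefore not measured. Of the core subunits, 41 had at least 100 reads in every library, and 38 of these ranged over 2-fold. Of the 69, the 4 that stayed within 2-fold on the log2(RPKM + 1) scale were Rpl4, Rpl14, Rpl15 and Rpl28, named after their values were seen. In RPKM itself Rpl14 ranged over 2.01-fold. All 4 were in the large subunit, which had 37 of 41 tested members over 2-fold and 11 of 41 over 4-fold. All 28 tested small-subunit members passed 2-fold and 14 passed 4-fold.

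By RPKM the family was densest under the label heart and least dense under the label small intestine. Each library was set against the median of the other 5. In the library labelled small intestine, 24 of 69 core subunits were at least 2-fold lower (29.9% of all mRNAs) and 0 were 2-fold higher (21.8%), and the median log2 difference was −0.76, beside −0.25 for all mRNAs. In the library labelled heart, 13 were higher (20.5%) and 2 were lower (26.0%), with a median of 0.54 beside −0.15. In the library labelled lung, 18 were higher (32.0%) and 7 lower (17.5%), with a median of 0.42 beside 0.37. The library labelled colon had 6 higher (25.8%) and 13 lower (17.7%), with a median of −0.16 beside 0.20. The labels brain (2 higher, 24.7%, and 8 lower, 23.0%) and kidney (4 higher, 18.2%, and 1 lower, 21.0%) had medians of 0.02 and −0.02 beside 0.05 and −0.19. These places depended on the scaling, which was varied after the data were seen. With Kri1 left out of the reads, the median difference under the label kidney was 0.24, and the core medians under heart and kidney were both 144 RPKM. With median-of-ratios scaling the median difference was −0.12 under lung, 0.78 under heart and −0.53 under small intestine, so that small intestine was lowest with each scaling. Of the 69 core subunits, 24 had their highest value under the label heart (34.8%, beside 15.1% of all 6969 mRNAs), 21 under lung (30.4%, beside 26.0%), 11 under colon (15.9%, beside 17.6%), 9 under kidney (13%, beside 7.25%), 4 under brain (5.80%, beside 16.5%) and 0 under small intestine (beside 17.4%). The lowest value lay under small intestine for 33 (47.8%, beside 22.8%), under colon for 12 (17.4%, beside 10.9%), under brain for 9 (13%, beside 21.5%), under lung for 8 (11.6%, beside 13%), under kidney for 6 (8.70%, beside 15.5%) and under heart for 1 (1.45%, beside 16.2%). Rplp2, at 0 under both brain and small intestine, is counted under brain.

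The cells in these libraries also differed. The summed density of 8 markers of dividing cells, which make many ribosomes, was 250, 128, 44.2, 160, 117 and 24.6 RPKM. It was lowest under the label small intestine, where the family was lowest, and next to lowest under the label heart. That of 8 lymphoid markers was 99.4, 10.7, 14.9, 49.8, 196 and 42.1 RPKM, and that of 4 erythroid markers was 1.29, 118, 44.6, 5.03, 443 and 2.80 RPKM. All 8 markers of dividing cells had reads in every library. Depending on the library, 2 to 7 of the 8 lymphoid markers and 2 to 4 of the 4 erythroid markers had reads. Their part in the levels of the family was not tested.

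Single subunits departed from the rest in single libraries. The departures below are relative to the core median of the library and to the subunit's own mean, on the log2 scale. Rpl35a, whose loss is a cause of Diamond-Blackfan anaemia, had 556, 3891, 1023, 695, 342 and 825 RPKM. It stood 2.21 above in the library labelled colon, where its 5785 reads give a 95% Poisson interval of 3792 to 3993 RPKM. The value under the label colon was the highest of the 6.

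In the library labelled heart, Rps24, also a Diamond-Blackfan anaemia gene, dropped by 1.47, with 178, 105, 35.8, 58.5, 142 and 26.6 RPKM. Its lowest density lay under the label small intestine, where the whole family was low. Rpl19 and Rps24 were the 2 core subunits at least 2-fold lower in the library labelled heart than the median of the others.

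In the library labelled lung, Rpl39, a protein of the nascent peptide exit tunnel, stood 1.98 above, with 108, 58.0, 70.3, 134, 436 and 22.2 RPKM. Rps29, a zinc-binding protein of the small subunit head, dropped by 3.19, with 150, 54.2, 281, 247, 11.6 and 101 RPKM. Only 15 reads of Rps29 were found under the label lung (6.46 to 19.1 RPKM), against 41 to 386 in the other libraries. Rps21 had 0.378, 24.1, 26, 10.6, 0 and 13.1 RPKM, with 1 read under the label brain and 0 under lung, which allows up to 1.56 RPKM (3 reads). All CDS windows of Rps21 and Rps29 were unique among coding mRNAs, but over the whole genome 21.3% and 0% of them were. Whether shared sequence lowered these values was not tested.

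Under the label kidney, Rpl13a stood 2.37 above, from 57 reads. Rps12, a protein of the small subunit, stood 1.35 above there, with 59.5, 37.5, 52.0, 138, 40.5 and 20.6 RPKM. Rps25 was the furthest below, where it dropped by 0.87, with 64.2, 34.3, 92.5, 29.9, 83.8 and 32.1 RPKM. The members furthest above in that library and in those labelled brain and small intestine were Rpl13a, Rps23 and Rpl29, all 3 with few reads. The most stable member relative to the family was Rps14, whose profile had a root mean square difference of 0.17 from that of the core median. Rps14 ranged over 2.15-fold. Rps27a, which is translated as a fusion to ubiquitin, had 87.2, 12.3, 50.9, 46.2, 94.8 and 36.1 RPKM, lowest under the label colon, with 36.6% unique windows. Rpsa, known also as a laminin receptor, had 360, 168, 139, 198, 406 and 113 RPKM and was at least 2-fold above the median of the others under the labels brain and lung.

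**Figure D4:**
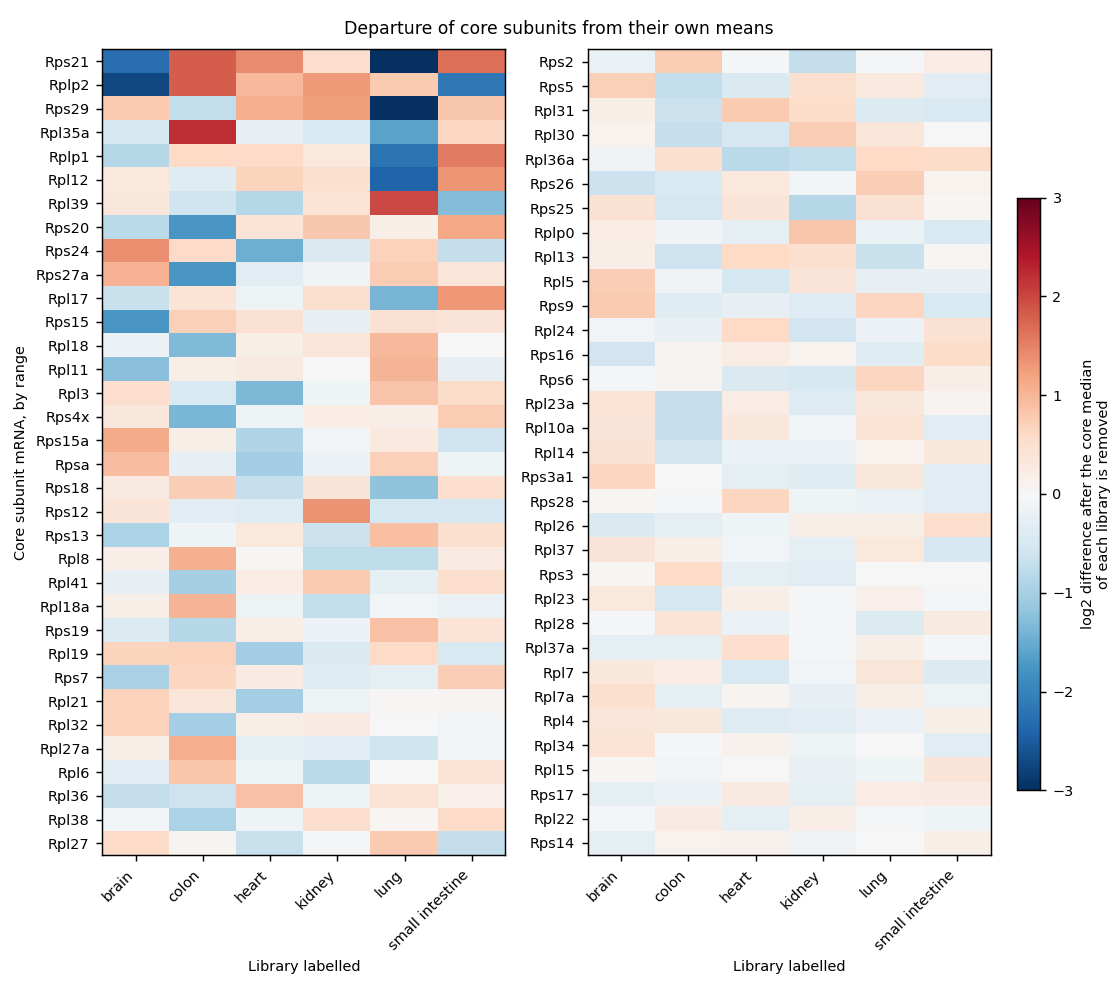
Colour gives the log2 departure of 67 core subunits with a mean of at least 10 RPKM from their own means, after the core median of each library was removed; rows are ordered by range in 2 columns and libraries are named by label. Colours end at −3 and 3, which Rps21 and Rps29 pass under the label lung. Shifts of a whole library cannot appear after this centring, and the strongest positive colours are Rpl35a under colon and Rpl39 under lung.

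The stalk proteins did not keep a fixed ratio. Rplp0 anchors the stalk of the large subunit and carries dimers of Rplp1 and Rplp2, which recruit elongation factors. Rplp0 had 257, 214, 273, 467, 252 and 107 RPKM, 1.70 to 4.16 times the core median of its library. Rplp1 had 140, 402, 571, 373, 72.2 and 495 RPKM, between 0.583 times the core median (lung label) and 7.88 times (small intestine label). It was thereby above Rplp0 under the labels colon, heart and small intestine and below it under brain, kidney and lung. Rplp2 had 0, 23.2, 18.4, 18, 13.9 and 0 RPKM, at most 0.233 times the core median. Of the CDS windows of Rplp2 only 18.3% were unique, and 81.7% also occur in the mRNAs of Rplp2-ps1 and Wdr89. Rplp0 had 100% unique windows and Rplp1 90.1%.

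Rpl3l carried most of the density of its pair in the library labelled heart. Rpl3 reaches towards the peptidyl transferase centre, and Rpl3l is its muscle paralog. Rpl3l had 0.0770, 0.364, 64.5, 0.216, 0 and 0.107 RPKM, from 1, 2, 644, 2, 0 and 1 reads. Rpl3 had 80.2, 43.0, 33.1, 61.7, 135 and 55.4 RPKM and was lowest in the library labelled heart. As a share of the summed density of the pair, Rpl3l was 66.1% there (95% exact interval 63.0 to 69.1) and at most 0.839% elsewhere (interval up to 3.00). The count of 0 under the label lung allows up to 0.318 RPKM (3 reads). The summed density of the pair was 80.3, 43.3, 97.5, 62.0, 135 and 55.5 RPKM, so the library labelled heart held the second highest sum with the lowest Rpl3. The heart label is one that the markers bear out.

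The sequences of the pair can be told apart among coding mRNAs. The CDSs were 73.7% identical over 1209 aligned bases, and all 29-nt windows of both were unique among coding mRNAs. Over the whole genome, 2.46% of the windows of Rpl3 and 98.6% of those of Rpl3l were unique. Whether shared sequence lowered Rpl3, and so raised the share of Rpl3l, was not tested. The first 27 bases of both CDSs are given, with the 6 bases that differ in capitals.
Rpl3 (gene at chr15:79961825-79976069 of GRCm39, minus strand): atgtcTcacAggaaAttctcAgcTccC
Rpl3l (gene at chr17:24946751-24955119 of GRCm39, plus strand): atgtcCcacCggaaGttctcTgcCccT

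No other paralog changed its share to this extent. Rpl22l1 had 34.2, 0, 8.68, 13.7, 0.353 and 10.4 RPKM, and Rpl22 had 537, 682, 684, 737, 697 and 333 RPKM. The share of Rpl22l1 was highest in the library labelled brain, at 5.98% (5.03 to 7.04), and 0% to 3.01% in the others. Rpl7l1 had 67.8, 96.6, 58.9, 52.4, 101 and 33.7 RPKM and exceeded Rpl7 in every library, with 63.7% to 74.9% of the summed density. The intervals of its lowest share (kidney label, 59.3 to 68.0) and its highest (colon label, 70.7 to 78.8) did not overlap. Among coding mRNAs all windows of Rpl7 and Rpl7l1 were unique, but over the whole genome 10.4% and 44.8% of them were. Whether shared sequence lowered Rpl7 more than Rpl7l1 was not tested. Rpl36al had 348, 409, 299, 292, 502 and 313 RPKM, or 35.9% to 47.6% of its sum with Rpl36a. This share depended on the measure, as reads per unique window gave 88.8% to 92.8%, Rpl36al having few unique windows. Rps27l had 19.1, 11.3, 17.5, 15.9, 0.821 and 2.49 RPKM, from 2 reads under the label lung and 64 under brain. A share could not be given for it since Rps27 was not listed.

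**Figure D5:**
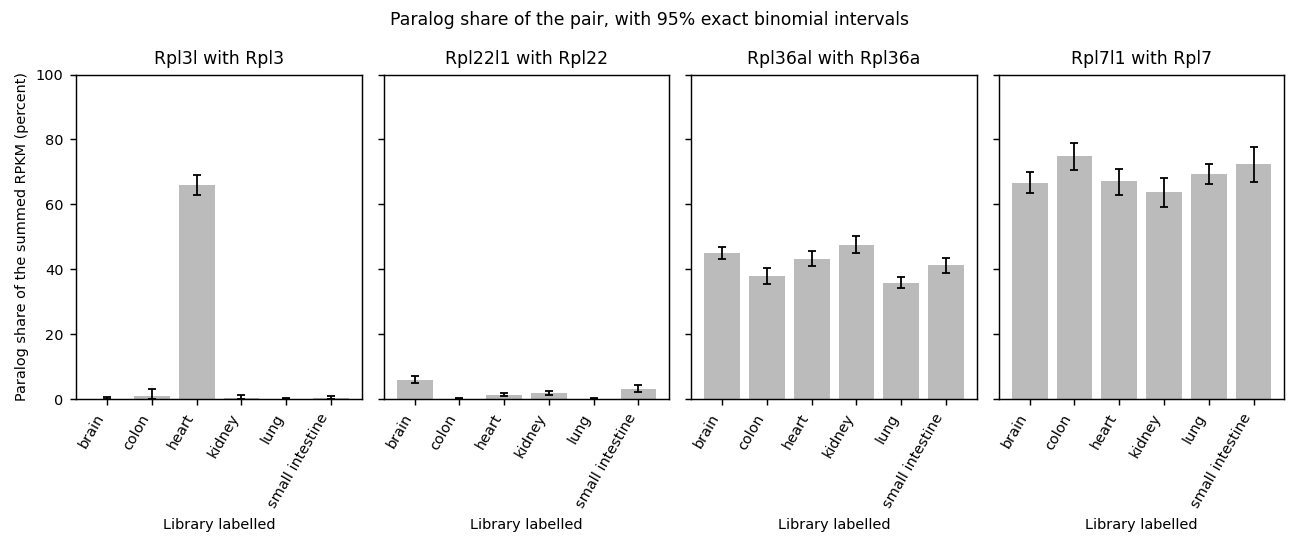
Bars give the share of a paralog in the summed RPKM of the paralog and its parent, in percent, by library label, and error bars the 95% exact binomial interval of the reads. Rpl3l reaches 66.1% under the label heart and is at most 0.839% elsewhere, Rpl22l1 stays at or below 5.98%, Rpl36al lies between 35.9% and 47.6% and Rpl7l1 between 63.7% and 74.9%.

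Some ribosomal proteins carry symbols outside the naming rule. Fau, the fusion that yields Rps30, had 817, 542, 1153, 559, 415 and 917 RPKM. Rack1, a scaffold on the small subunit head with 100% unique windows, had 29.1, 15.9, 21.6, 19.7, 0.816 and 3.99 RPKM, far below the core median. Of 16 other translation mRNAs known for a TOP motif, 14 (87.5%) ranged over 2-fold, beside 97.8% of all mRNAs with a mean of at least 10 RPKM. Eef1a1, the elongation factor that brings aminoacyl-tRNA, had 2538, 1555, 836, 2352, 4908 and 1019 RPKM, highest under the label lung, and Tpt1 had 524, 833, 2538, 642, 342 and 892 RPKM, highest under the label heart. In 8 of the 16 the highest value lay under the label lung and in 4 under heart, labels that held the highest value of 26.0% and 15.1% of all mRNAs with such a mean. All 7 dedicated chaperones and TOP regulators ranged over 2-fold, beside the same 97.8%. Among them were Larp1 (12.3 to 31.1 RPKM, highest under the label colon) and Bccip, a chaperone of Rpl23 (109 to 314 RPKM, highest under the same label). The minimum of 10 RPKM was not set for the 16 or the 7, and Eif3e and Heatr3 had means of 5.91 and 4.90 RPKM.

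Of 1231 mRNAs outside the family with a mean of at least 100 RPKM, those nearest to the profile of the core median over the 6 libraries were Calu, Fth1, Lamtor4, Mrpl17 and Oaz1, with root mean square differences of 0.09 to 0.27 on the log2 scale. Fth1, the ferritin heavy chain, had 137, 134, 163, 143, 154 and 65.9 RPKM. The median root mean square difference was 0.54 over the 74 core subunits and 1.15 over the 6969 mRNAs with a mean of at least 10 RPKM. The named mRNAs were picked as the nearest of 1231, so their values are not comparable with these medians. The core profile is itself made from the core subunits. The mean GC3 share was 62.4% ± 8.67 (SD over 74 core subunits) and 58.1% ± 12.1 over 18157 mRNAs. The large subunit was at 63.4% and the small subunit at 61.0%, and the extremes were Rpl23 with 44.4% and Rpl36 with 87%. Of the core subunits, 71 of 74 used more G or C than A or T at these positions, as did 73.6% of all mRNAs.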

How the data were processed

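The authors deposited RPKM values for 1 library per tissue. Per the labels, footprints of about 25 to 35 nt were cut from a gel, polyadenylated and reverse transcribed. According to the study's methods, reads were trimmed with Cutadapt and aligned with STAR to the longest-CDS mRNA of each gene of GRCm39, reads that map to several places or carry over 2 mismatches were left out, and reads on the CDS were counted. These steps are given for the macrophage libraries, which were not analysed here. Tool versions are not given in the sources used here. RPKM times CDS length gave whole reads for 100% of values (tolerance 0.01), and these recovered reads gave the depth, the Wilson, exact binomial and Poisson intervals (95%) and the shares; they cover counting error only, since no molecular identifiers were used. Symbols, CDSs and windows came from GENCODE M39 (18424 identifiers with a symbol; 98.6% of listed mRNAs found with the same CDS length), and promoters from RefSeq. Levels were compared as log2(RPKM + 1), which understates changes of low mRNAs. Scripts used Python 3.11.15, numpy 2.4.6, pandas 2.3.3, scipy 1.17.1, numba 0.67.0 and matplotlib 3.10.9 and were tested on simulated data. The members and lists were chosen with earlier results of these data known. Named were the 5 highest and lowest members, the 5 with the largest range before and after centring, the furthest departures per library, all paralog pairs, the stalk proteins, Rps27a, Rpsa, the pathway lists and the 5 nearest profiles. A few mRNAs that these rules name are not reported here. Other members were named after their values were seen.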

Additional observations from a re-analysis of the deposited data

How the results depend on the processing

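The shares of reads, core medians, SDs, differences between subunits and between libraries, 2-fold counts, paralog shares, unique windows, GC3 and the motif were recomputed under the alternatives. Departures of single subunits, stalk ratios, nearest profiles, and counts of the highest library were not. Chosen after seeing the data were Rpl41 left out, Rpl3l per unique window, the 4-fold counts, 100 reads in every library for the 2-fold count, the genome search, core medians without Kri1, and both scalings of the difference between a library and the other 5. In the order of labels used above, the members' share of reads was 0.997%, 1.14%, 1.17%, 1.22%, 1.15% and 0.709% without Kri1, 0.996%, 1.09%, 1.22%, 0.987%, 1.16% and 0.621% without mitochondrially encoded mRNAs, 0.959%, 1.04%, 1.13%, 0.939%, 1.12% and 0.596% for core subunits only, and 0.918%, 1.03%, 1.04%, 0.811%, 1.07% and 0.542% without Rpl41. With Fau added to the core it was 0.992% (brain), 1.18% (heart), 0.961% (kidney) and 0.633% (small intestine), and within the interval in the other 2. The SD between core subunits was 2.09, 2.24, 1.77, 1.85, 2.04 and 1.88 with at least 90% unique windows and 1.57, 1.51, 1.54, 1.55, 1.53 and 1.46 with at least 100 reads in every library. The difference between large and small subunit reversed to −0.16 (kidney label, unique windows), −0.010 (lung label, means) and −0.035 (lung label, CDSs of at least 300 nt); the other 21 of 24 recomputed differences stayed positive. The median difference between a library and the other 5 reversed to −0.022 (brain), 0.29 (kidney) and −0.12 (lung) and moved to 0.78 (heart) and −0.53 (small intestine) with median-of-ratios scaling, and reversed to −0.10 (brain) and 0.24 (kidney) without Kri1. The number of core subunits over 2-fold was 38 of 41 with at least 100 reads and 25 of 69 at 4-fold, and after centring 18 of 69 at 4-fold. Leaving out each library in turn gave 57 to 65 of 69, and 44 to 51 of 69 after centring. Rpl36al took 92.1%, 89.7%, 91.6%, 92.8%, 88.8% and 90.9% of its pair per unique window. Over the whole genome 1.30% of core subunits had at least 90% unique windows, and the pyrimidine motif stood exactly at the start in 20.4%. The cause of these changes was not tested beyond what each alternative leaves out. The other 103 recomputed values stayed within a 95% interval of the value (binomial for shares, from the order of the subunits for medians), within 10% for an SD, within the SD for GC3 or within 1.5 times for a count. These intervals of medians are wide, and a median within them can still change its place among the libraries, as that under the label lung did with median-of-ratios scaling (124 to 88.7 RPKM, interval 86.2 to 209). No paired analysis was possible because each tissue had 1 library. Depth limits members with few reads, as 8 core subunits had fewer than 10 reads in some library.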
